A study of Mus musculus with 11 samples.

Results

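The C-type lectins of dendritic cells and macrophages were examined in bulk RNA sequencing of cultured mouse monocytes. The members were the 10 genes Mgl2, Clec10a, Mrc1, Ly75, Cd209a, Clec4n, Clec7a, Clec4d, Clec4e and Clec12a, found by symbol among the 21860 genes of the normalised count table, and all 10 passed the filter on low values. Bone marrow monocytes were cultured for 6 days, and cells low for CD11b and positive for EpCAM, an adhesion molecule of Langerhans cells, were sorted and sequenced in 11 samples. The study asked how Notch signalling combines with other signals of the skin to direct monocytes toward a monocyte-derived Langerhans cell (mLC) fate. GM-CSF was given to every culture, at 20 ng/ml. The Jag1 only group (n = 1) had the Notch ligand Jagged-1 and neither TGFβ nor IL-34. The other 4 groups had TGFβ (5 ng/ml) with IL-34 (8 µg/ml). Of these, 2 samples had nothing further (TGFβ/IL-34), 2 had FICZ in addition (TGFβ/IL-34/FICZ), 3 had Jag1 in addition (TGFβ/IL-34/Jag1), and the last 3 had both additions (TGFβ/IL-34/Jag1/FICZ). FICZ binds the aryl hydrocarbon receptor (Ahr), and its dose was not given in the sources used here. The study calls it an agonist of Ahr, a term followed here, whereas the deposited design text calls it an antagonist.

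Jag1 was presented by mouse stromal cells of the OP9 line that express it. The labels describe every sample as a co-culture with OP9 cells, although the summed level of 8 stroma markers was 7.58 to 38.0 normalised counts in the groups without Jag1 and 301 to 3763 in those with it, with Dcn and Lum at 0 in all groups. The effects of Jag1 and of stroma therefore cannot be told apart. Replicates of a group carry different experiment codes. Beyond these codes the labels do not say whether replicates came from separate animals or cultures, so p-values measure only the spread between these samples. In bulk samples, fewer cells of a type and less RNA per cell cannot be told apart.

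C-type lectins are membrane receptors with a carbohydrate-recognition fold, and many of them bind sugars on microbes or on the body's own glycoproteins. Endocytic members such as the mannose receptor take up glycoproteins and deliver them for antigen presentation. Activating members of the Dectin type signal through an activation motif, their own or that of the adaptor FcRγ, to the kinase Syk and the adaptor Card9, whereas inhibitory members carry a motif that recruits phosphatases. Langerhans cells are themselves defined by a C-type lectin, langerin, the product of Cd207.

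The samples held 21.3 to 27.8 M normalised counts each, which corresponds to an estimated 20.6 to 24.2 M reads, and a level of 3 reads equals 2.69 to 3.45 normalised counts. The TGFβ/IL-34/FICZ replicates stood far apart from each other. They carry different experiment codes and flow cells, and leaving out replicate 2 raised the number of genes called in the FICZ effect without Jag1 from 3 to 5718, so where leaving out 1 of them changes a call of a lectin, that value is given beside the result. In such a fit the lone sample left in the group is assumed to vary like the other groups. Likewise, TGFβ/IL-34/Jag1/FICZ replicate 1 differs from replicates 2 and 3 of its group in code and flow cell. It shares both with TGFβ/IL-34/FICZ replicate 1. No sample without FICZ was on that flow cell, so flow cell and FICZ cannot be fully told apart. Of the cell type markers, the summed Langerhans cell list (6 genes) was 312903 to 325185 in TGFβ/IL-34/Jag1 against 25054 to 162919 elsewhere. Mfge8 made up most of this sum (mean of 266443 in TGFβ/IL-34/Jag1), whereas the means of Cdh1 and Cd24a were lower there (12815 and 10579) than in TGFβ/IL-34 (15512 and 12109). The neutrophil and granulocyte progenitor list (8 genes) reached 6734 to 10276 in TGFβ/IL-34/Jag1/FICZ and 2369 to 3232 in TGFβ/IL-34/FICZ, against 135 to 1408 elsewhere, with Ly6g at 0 in all groups but TGFβ/IL-34. The classical monocyte list (5 genes) was 465 to 1069 in TGFβ/IL-34/Jag1 and 5117 to 10172 elsewhere. Macrophage markers (6 genes) summed to 7013 to 33838, conventional dendritic cell markers (5 genes) to 4866 to 17487, mast cell and basophil markers (5 genes, Fcer1a at 0) to 1774 to 12117, and lymphocyte markers (4 genes) to at most 34.05.

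The galactose-type lectins Mgl2 and Clec10a, which bind terminal galactose and N-acetylgalactosamine, were highest in TGFβ/IL-34/Jag1. They lie 18.6 kb apart on chromosome 11 with no protein-coding gene between them, Mgl2 at chr11:70020954-70028376 and Clec10a at chr11:70047023-70061660, both on the plus strand (GRCm39, GENCODE). As close paralogues they share 419 stretches of 31 bases, and 20.7% of those of Mgl2 and 14.98% of those of Clec10a also occur in other genes, so the division of reads between the pair is uncertain. The annotated starts of both genes are shown because both members moved with Jag1. That of Clec4e is shown as 1 of the 3 members that rose with FICZ in the presence of Jag1. The other members that rose there, Cd209a and Clec12a, hold no GCGTG or CACGC in their windows. Each window runs from 250 bases before to 50 bases after the start of the canonical transcript, with Mgl2 at chr11:70020704-70021003 (plus strand), Clec10a at chr11:70057218-70057517 (plus strand) and Clec4e at chr6:123266780-123267079 (minus strand), read from the GRCm39 genome. Capitals mark letters of the Notch effector RBPJ (GTGGGAA or its complement TTCCCAC) in Mgl2 and of the Ahr response element core (GCGTG or CACGC) in Clec4e.

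Mgl2: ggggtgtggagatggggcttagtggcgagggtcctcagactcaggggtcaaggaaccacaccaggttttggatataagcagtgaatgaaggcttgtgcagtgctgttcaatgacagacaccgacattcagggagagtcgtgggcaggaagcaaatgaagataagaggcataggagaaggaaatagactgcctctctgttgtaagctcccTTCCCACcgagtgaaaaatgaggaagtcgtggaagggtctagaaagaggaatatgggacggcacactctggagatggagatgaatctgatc
Clec10a: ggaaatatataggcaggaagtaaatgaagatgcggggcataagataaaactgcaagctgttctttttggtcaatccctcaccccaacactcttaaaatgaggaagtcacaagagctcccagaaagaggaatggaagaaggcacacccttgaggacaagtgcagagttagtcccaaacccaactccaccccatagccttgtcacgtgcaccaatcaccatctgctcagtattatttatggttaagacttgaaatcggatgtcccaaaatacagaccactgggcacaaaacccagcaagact
Clec4e: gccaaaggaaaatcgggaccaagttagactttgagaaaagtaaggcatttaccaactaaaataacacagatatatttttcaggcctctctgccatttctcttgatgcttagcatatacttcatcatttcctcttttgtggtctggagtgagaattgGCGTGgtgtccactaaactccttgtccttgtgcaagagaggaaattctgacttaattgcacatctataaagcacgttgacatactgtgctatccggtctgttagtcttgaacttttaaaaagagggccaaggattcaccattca

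The letters TTCCCAC began at position -41 in Mgl2 and at -244 in Mrc1 and were in no other member. They were found on either strand in 6.34% of 21491 promoters of the same length. GCGTG was found at -94 in Clec4e, at 43 in Ly75 and in no other member, and in 37.2% of all promoters. A STAT6 site, TTC and GAA with 4 bases between them, was found at -133 in Clec7a and in 6.79% of promoters. No overlap was possible between the letters of these motifs in the members, since each member held at most 1 of them. A match is a description of the letters in the window and not of binding.

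Mgl2 stood at 11558 normalised counts in replicate 1, 9120 in replicate 2 and 11545 in replicate 3 of TGFβ/IL-34/Jag1. In TGFβ/IL-34 it was 1087 and 398, in TGFβ/IL-34/FICZ 526 and 652, and in TGFβ/IL-34/Jag1/FICZ 795, 295 and 1250. The Jag1 only sample held 3194. Thus all 3 TGFβ/IL-34/Jag1 samples lay above every other sample, the Jag1 only sample came next, and the other 3 groups overlapped one another. Mgl2 rose with Jag1 in the absence of FICZ by 4.02 ± 0.55 (log2 fold change ± SE on log2(normalised count + 1), adjusted p = 0.00220, limma). With Jag1 present, FICZ lowered it by a log2 fold change of -4.00 ± 0.49 (adjusted p = 0.000438). Both calls held under all 10 other settings and with each sample left out in turn.

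Clec10a followed the same order at lower levels. Its normalised counts were 1108, 735 and 912 in TGFβ/IL-34/Jag1, and 688 in Jag1 only. They were 172 and 63.9 in TGFβ/IL-34, 223 and 77.5 in TGFβ/IL-34/FICZ, and 164, 49.0 and 92.9 in TGFβ/IL-34/Jag1/FICZ. The TGFβ/IL-34/Jag1 samples did not overlap with any other group. Clec10a rose with Jag1 without FICZ (log2 fold change 3.10 ± 0.59, adjusted p = 0.0125) and fell with FICZ in the presence of Jag1 (-3.30 ± 0.53, adjusted p = 0.00193). The FICZ call held in every fit, whereas the Jag1 call was lost without TGFβ/IL-34 replicate 2 (adjusted p = 0.171) and without TGFβ/IL-34/Jag1 replicate 1 (adjusted p = 0.0501).

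The FICZ effect on Mgl2 differed between cultures with and without Jag1. Without Jag1 its log2 fold change was -0.17 ± 0.60 (adjusted p = 0.885), and the interaction was -3.84 ± 0.77 (adjusted p = 0.0444). That interaction was the only one called among the members, and it was lost in 9 of 10 fits that left out 1 sample, with adjusted p of 0.0116 (without TGFβ/IL-34/FICZ replicate 2) to 0.249 (without TGFβ/IL-34 replicate 2). For Clec10a the interaction was -3.63 ± 0.84 and missed the threshold (adjusted p = 0.0709), and it passed when replicate numbers were blocked (adjusted p = 0.0123) and without TGFβ/IL-34/FICZ replicate 2 (-4.38, adjusted p = 0.00346), but not without its replicate 1 (-2.87, adjusted p = 0.154). With both Jag1 and FICZ, the differences from TGFβ/IL-34 were 0.01 ± 0.55 for Mgl2 and -0.21 ± 0.59 for Clec10a (adjusted p = 0.994 and 0.923). The 6 macrophage markers, none of them at 0 in either group, summed to 17578 to 33838 in TGFβ/IL-34/Jag1 and 9010 to 13317 in TGFβ/IL-34/Jag1/FICZ, and the part of macrophage-like cells in the levels of both lectins was not tested. The sum followed C1qa, C1qb and C1qc (means of 5171 to 6366 against 562 to 658), while Adgre1 had means of 7364 and 9447 and went the other way. The Jag1 only sample, which came next after TGFβ/IL-34/Jag1 for both lectins, had the lowest macrophage sum (7013) and the lowest Adgre1 (3548). Its C1qa (944), C1qb (1078), C1qc (792) and Mertk (546) came next after the means of TGFβ/IL-34/Jag1. Fcgr1, also listed, was 104 there and had a mean of 16.2 in TGFβ/IL-34/Jag1.

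**Figure D1:**
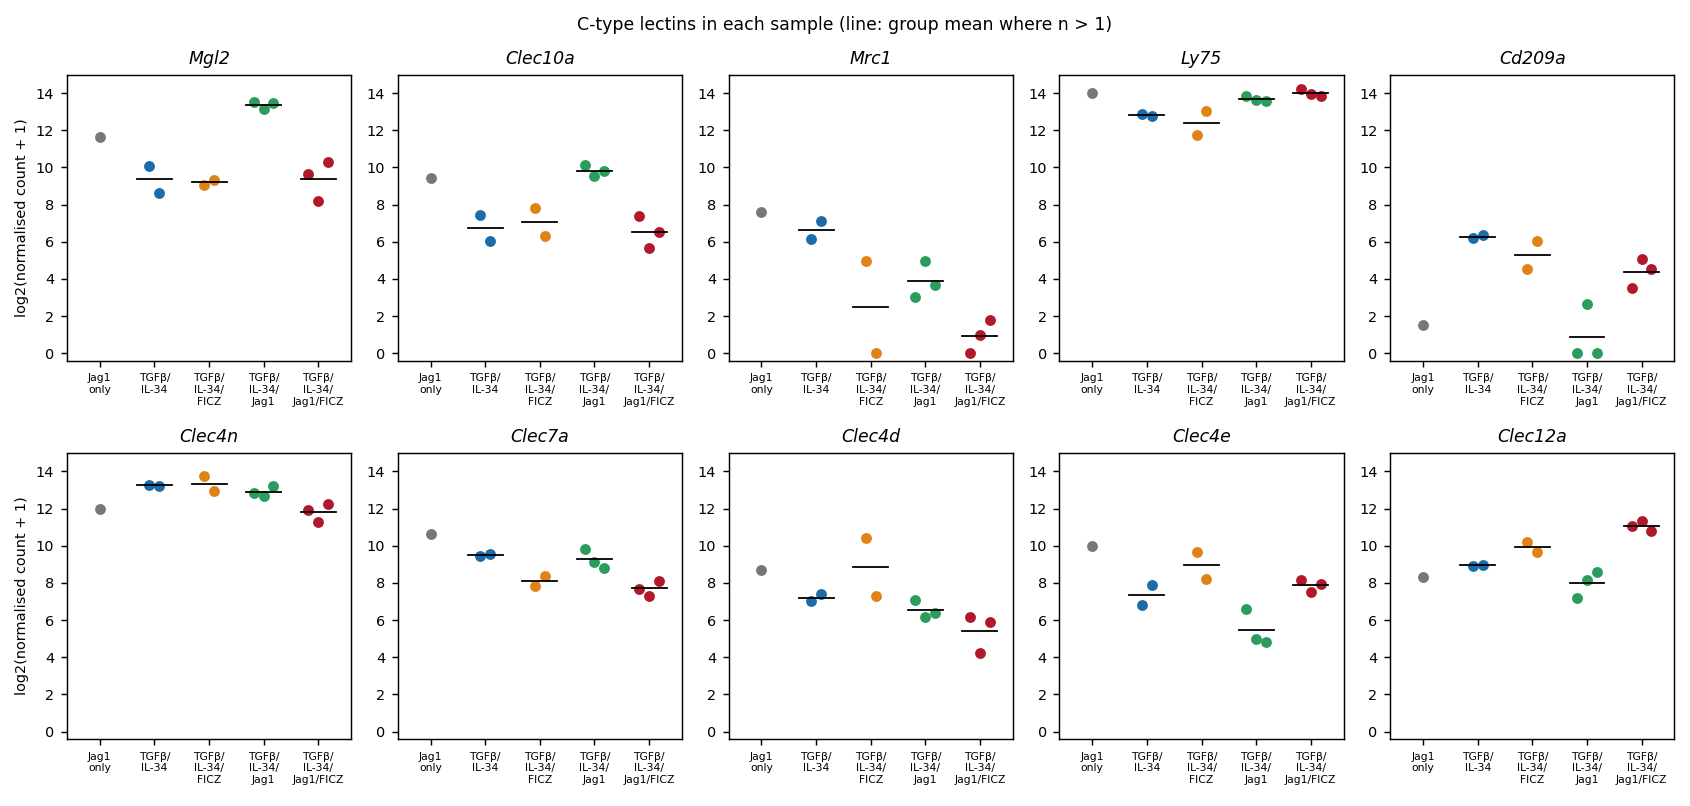
Each point is 1 sample, plotted as log2(normalised count + 1) on the vertical axis for the 5 culture groups on the horizontal axis, with 1 panel per lectin and a line at the mean of each group with more than 1 sample. Mgl2 and Clec10a are highest in TGFβ/IL-34/Jag1, Clec12a is highest in TGFβ/IL-34/Jag1/FICZ (1780 to 2622 normalised counts), and Mrc1 and Cd209a stay at or below 195 normalised counts.

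The endocytic receptors Mrc1 and Ly75 are related in structure but differed in level and direction. Mrc1 encodes the mannose receptor, which takes up mannosylated glycoproteins and marks many tissue macrophages (chr2:14234151-14336926, plus strand). It was low throughout, with 195 normalised counts in Jag1 only, 70.1 and 139 in TGFβ/IL-34, 30.5 and 0 in TGFβ/IL-34/FICZ, 7.27, 30.4 and 11.6 in TGFβ/IL-34/Jag1, and 0, 0.952 and 2.49 in TGFβ/IL-34/Jag1/FICZ. All 3 samples of the last group were below the level of 3 reads. Neither the TGFβ/IL-34/Jag1 nor the TGFβ/IL-34/FICZ samples overlapped with TGFβ/IL-34. Mrc1 fell with Jag1 and FICZ together (log2 fold change -5.71 ± 1.25, adjusted p = 0.0327), a value that depends on the pseudocount because the lower group is near 0. The call was lost with any 1 of the 5 samples left out (adjusted p = 0.0588 to 0.244) and when replicate numbers were blocked (adjusted p = 0.0599). Jag1 without FICZ gave -2.75 ± 1.25 (adjusted p = 0.273), and FICZ without Jag1 gave -4.15 ± 1.37 (adjusted p = 0.285). The Jag1 difference in the presence of FICZ was -1.57 ± 1.25 (adjusted p = 0.441). It was -4.05 without TGFβ/IL-34/FICZ replicate 2 (adjusted p = 0.00717) and 0.92 without its replicate 1 (0.730), so its direction rests on 1 library.

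Ly75 encodes DEC-205, an endocytic receptor of dendritic cells and Langerhans cells that delivers antigen for presentation (chr2:60122441-60213682, minus strand). In the cultures with Jag1 it was 16615 normalised counts in Jag1 only, 14651, 12676 and 12309 in TGFβ/IL-34/Jag1, and 19267, 15780 and 14796 in TGFβ/IL-34/Jag1/FICZ. In TGFβ/IL-34 it was 7498 and 6980, and in TGFβ/IL-34/FICZ 3432 and 8513. Every sample with Jag1 was thus above every sample without it. With FICZ present, Ly75 rose with Jag1 by 1.61 ± 0.32 on the log2 scale (adjusted p = 0.0319). This call held without either TGFβ/IL-34/FICZ sample and was lost without any 1 of the TGFβ/IL-34/Jag1/FICZ samples (adjusted p up to 0.123) and when replicate numbers were blocked (0.0657). It was also lost with no filter (0.0691), in a fit of the compared groups alone (0.194), with the experiment code of either source as a block (0.0551 and 0.0546) and with array weights (0.565), so 4 of 10 other settings kept it. Without FICZ the difference was 0.86 ± 0.32 and missed the threshold (adjusted p = 0.157), although it passed in a fit of the compared groups alone (0.00993). The interaction was 0.75 ± 0.45 (adjusted p = 0.356). Leaving out TGFβ/IL-34/FICZ replicate 2 raised it to 1.40 (adjusted p = 0.00118) and leaving out replicate 1 lowered it to 0.0907 (0.898), and the FICZ difference without Jag1, -0.42 ± 0.35 (0.477), became -1.08 (0.00148) and 0.23 (0.863).

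Cd209a, a mouse relative of the human dendritic cell lectin DC-SIGN, went the opposite way from Mgl2 (chr8:3793397-3798984, minus strand). It was low, with 72.8 and 81.1 normalised counts in TGFβ/IL-34, 22.5 and 65.3 in TGFβ/IL-34/FICZ, 10.2, 32.2 and 22.3 in TGFβ/IL-34/Jag1/FICZ, 0, 5.37 and 0 in TGFβ/IL-34/Jag1, and 1.92 in Jag1 only. The cultures with Jag1 and no FICZ were therefore at or near 0, and they did not overlap with any other group. Cd209a fell with Jag1 without FICZ (log2 fold change -5.39 ± 0.90, adjusted p = 0.00611) and rose with FICZ in the presence of Jag1 (3.47 ± 0.81, adjusted p = 0.0138). As the lower group is near 0, these values depend on the pseudocount, and they were -6.09 and 4.14 with a pseudocount of 0.5 and -3.93 and 2.17 with 4, past the threshold each time. The first call was lost without either TGFβ/IL-34 sample (adjusted p = 0.0598 and 0.0829). The second was lost without TGFβ/IL-34/Jag1 replicate 1 or 3 or TGFβ/IL-34/Jag1/FICZ replicate 2 (0.0518, 0.0536 and 0.0673). The interaction was 4.45 ± 1.27 (adjusted p = 0.129), which passed without TGFβ/IL-34/FICZ replicate 2 (5.20, 0.0175) and not without its replicate 1 (3.70, 0.257). The summed classical monocyte markers were lowest in TGFβ/IL-34/Jag1 (465 to 1069) and were 8363 in the 1 Jag1 only sample, where Cd209a was also near 0. The part of monocyte-like cells in the level of Cd209a was not tested.

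Clec4n, Clec4d and Clec4e lie beside one another on chromosome 6, with 15.1 kb between Clec4n and Clec4d and 6.52 kb between Clec4d and Clec4e, yet their levels differed in order across the groups. Clec4n encodes Dectin-2, a receptor for fungal mannans (chr6:123206802-123223980, plus strand). It was 9915 and 9565 normalised counts in TGFβ/IL-34, 13570 and 7830 in TGFβ/IL-34/FICZ, 7211, 6554 and 9678 in TGFβ/IL-34/Jag1, 4048 in Jag1 only, and 3954, 2458 and 4790 in TGFβ/IL-34/Jag1/FICZ. The last group did not overlap with the other TGFβ/IL-34 groups. Clec4n fell in TGFβ/IL-34/Jag1/FICZ, compared with TGFβ/IL-34/Jag1 (log2 fold change -1.10 ± 0.28, adjusted p = 0.0216), with TGFβ/IL-34/FICZ (-1.52 ± 0.31, adjusted p = 0.0401) and with TGFβ/IL-34 (-1.44 ± 0.31, adjusted p = 0.0317). The first call was lost without TGFβ/IL-34/Jag1 replicate 1 or 3 or TGFβ/IL-34/Jag1/FICZ replicate 1 or 2 (adjusted p = 0.0532 to 0.0907). The call against TGFβ/IL-34/FICZ was lost without replicate 1 of that group (0.156) and without any 1 of the Jag1/FICZ samples (0.0657 to 0.130) and held without replicate 2 (0.00163). It was also lost with no filter (0.0772), with the compared groups alone (0.191) and with array weights (0.689). The call against TGFβ/IL-34 held only without TGFβ/IL-34/Jag1/FICZ replicate 3 (0.0374) among the fits that left out a sample, with adjusted p of up to 0.244 in the others. Added to TGFβ/IL-34, neither Jag1 without FICZ nor FICZ without Jag1 changed Clec4n past the threshold (-0.34 ± 0.31 and 0.08 ± 0.34, adjusted p = 0.660 and 0.902). The interaction was -1.18 ± 0.44 (0.211), and -1.58 (0.0155) and -0.78 (0.432) without TGFβ/IL-34/FICZ replicate 2 and 1.

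Clec4e encodes Mincle, which binds mycobacterial cord factor and a protein of damaged cells (chr6:123258748-123266829, minus strand). It was 284.8, 183 and 244 normalised counts in TGFβ/IL-34/Jag1/FICZ and 94.4, 30.7 and 26.7 in TGFβ/IL-34/Jag1. In TGFβ/IL-34 it was 112 and 233, in TGFβ/IL-34/FICZ 813 and 296, and in Jag1 only 996, the highest sample of all. Clec4e rose with FICZ in the presence of Jag1 (log2 fold change 2.42 ± 0.53, adjusted p = 0.0102), a call that held in every fit. Without Jag1 the FICZ difference was 1.60 ± 0.65 (adjusted p = 0.285). It was 2.32 without TGFβ/IL-34/FICZ replicate 2 (adjusted p = 0.0266) and 0.87 without its replicate 1 (0.875). The interaction was 0.83 ± 0.84 (adjusted p = 0.566). Jag1 without FICZ gave -1.89 ± 0.59 (adjusted p = 0.0964), and this passed with the experiment code as a block (-2.26, 0.0132), with array weights (0.00490) and without TGFβ/IL-34/Jag1 replicate 1 (0.0330). The summed neutrophil and granulocyte progenitor markers, of cells known to carry Mincle, were likewise higher in TGFβ/IL-34/Jag1/FICZ than in TGFβ/IL-34/Jag1. The sum was 340 in the Jag1 only sample, where Clec4e was highest. It was 2369 to 3232 in TGFβ/IL-34/FICZ and 6734 to 10276 in TGFβ/IL-34/Jag1/FICZ, where Clec4e was lower than in TGFβ/IL-34/FICZ. The part of such cells in the level of Clec4e was not tested.

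Clec4d encodes MCL, a partner of Mincle at the cell surface (chr6:123239070-123252230, plus strand), and was called in no contrast. It was 1354 normalised counts in TGFβ/IL-34/FICZ replicate 1 and 158 in replicate 2, a wider gap than within any other group. The remaining values were 407 in Jag1 only, 127 and 171 in TGFβ/IL-34, 137, 71.7 and 81.5 in TGFβ/IL-34/Jag1, and 71.6, 17.8 and 57.9 in TGFβ/IL-34/Jag1/FICZ. Clec4d was thus low in TGFβ/IL-34/Jag1/FICZ, in which its neighbour Clec4e was higher than in TGFβ/IL-34/Jag1. Jag1 and FICZ together gave -1.78 ± 0.82 (adjusted p = 0.295 by limma), which passed with the experiment code as a block (0.0470) and with array weights (0.0149). FICZ with Jag1 gave -1.12 ± 0.74 (0.360) and passed with the flow cell as a block (0.0494). With FICZ present, the Jag1 difference was -3.43 ± 0.82 (adjusted p = 0.0674). It passed with the experiment code (0.0188), the code of the authors' file (0.0233) or the flow cell (0.0300) as a block. It was -4.97 without TGFβ/IL-34/FICZ replicate 2 and -1.88 without replicate 1. FICZ without Jag1 gave 1.65 ± 0.90 (0.321), and 3.19 (0.00743) and 0.10 (0.994) without replicate 2 and 1, and the interaction was -2.77 ± 1.16 (0.245), and -4.31 (0.00474) and -1.22 (0.577).

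Clec7a encodes Dectin-1, a receptor for fungal β-glucan that carries its own activation motif (chr6:129438554-129449742, minus strand). Its normalised counts were 203, 159 and 279 in TGFβ/IL-34/Jag1/FICZ and 228 and 324 in TGFβ/IL-34/FICZ. They were 903, 562 and 454 in TGFβ/IL-34/Jag1, 706 and 744 in TGFβ/IL-34, and 1596 in Jag1 only. Every sample with FICZ was below every sample without it. Clec7a fell with FICZ in the presence of Jag1 (log2 fold change -1.55 ± 0.29, adjusted p = 0.00483), and this call held in every fit. Without Jag1 the FICZ difference was of like size but missed the threshold (-1.41 ± 0.36, adjusted p = 0.279). It passed without TGFβ/IL-34/FICZ replicate 2 (-1.66, adjusted p = 0.0106) and not without its replicate 1 (-1.16, 0.638). The interaction was -0.14 ± 0.47 (adjusted p = 0.867). Jag1 and FICZ together gave -1.80 ± 0.33 (adjusted p = 0.0164), a call that 4 of 5 fits with 1 sample left out lost. It held without TGFβ/IL-34/Jag1/FICZ replicate 3 (adjusted p = 0.0230) and not without replicate 1 or 2 of that group (0.0646 and 0.0694).

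Clec12a encodes an inhibitory receptor of myeloid cells that senses uric acid crystals, and lies 96.3 kb from Clec7a (chr6:129319654-129342266, plus strand). It moved the opposite way from Clec7a with FICZ. Its normalised counts were 2175, 2622 and 1780 in TGFβ/IL-34/Jag1/FICZ and 1178 and 807 in TGFβ/IL-34/FICZ, against 482 and 496 in TGFβ/IL-34, 312 in Jag1 only, and 146, 286 and 389 in TGFβ/IL-34/Jag1. Here too the samples with FICZ did not overlap with those without it, in this case from above. Clec12a rose with FICZ in the presence of Jag1 (log2 fold change 3.09 ± 0.33, adjusted p = 0.000202), which held in every fit and is a mean of 2192 ± 421 (SD, n = 3) against 274 ± 122 (SD, n = 3). FICZ without Jag1 gave 0.99 ± 0.40 (adjusted p = 0.285), and the interaction was 2.10 ± 0.52 (adjusted p = 0.0877). The interaction passed without TGFβ/IL-34/FICZ replicate 2 (1.82, 0.0289) and not without its replicate 1 (2.37, 0.0869). Jag1 and FICZ together gave 2.14 ± 0.37 (adjusted p = 0.0114), which was lost without either TGFβ/IL-34 sample or TGFβ/IL-34/Jag1/FICZ replicate 2 (0.0568 to 0.132). The neutrophil and granulocyte progenitor markers, of cells that also express Clec12a, were highest in the same group (6734 to 10276 against 135 to 270 in TGFβ/IL-34/Jag1, Ly6g at 0 in both), and their part in the result was not tested.

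Counted by comparison, FICZ in the presence of Jag1 called the most members. Cd209a, Clec4e and Clec12a rose (3 of 10, where 10.9% of the 13095 genes tested rose) and Mgl2, Clec10a, Clec4n and Clec7a fell (4 of 10, where 6.71% fell). Jag1 without FICZ raised 2 (2.64% of genes) and lowered 1 (3.96%). FICZ without Jag1 called no member (0.0153% of genes rose and 0.00764% fell by limma). An unadjusted p below 0.05 by limma was found for 4 members and for 2284 of the 13095 genes tested. No other setting called a member except the fit without TGFβ/IL-34/FICZ replicate 2. That fit leaves 1 sample in the group and also called many more genes of the whole table. Jag1 and FICZ together raised 1 (3.12%) and lowered 3 (1.37%). Jag1 in the presence of FICZ raised 1 (1.41%) and lowered 1 (0.603%), and no member had a positive interaction past the threshold (1.17%) and 1 had a negative one (0.221%). The median log2 fold change of the members was -1.11 for FICZ with Jag1, against -0.01 over all genes tested, and -0.50 for Jag1 without FICZ, against 0.00. It was -0.04, -0.82 and -0.74 for FICZ without Jag1, both together and Jag1 with FICZ, and 0.30 for the interaction, with the median of all genes between -0.02 and 0.07 in these. The contrasts share samples, so their counts are not independent.

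**Figure D2:**
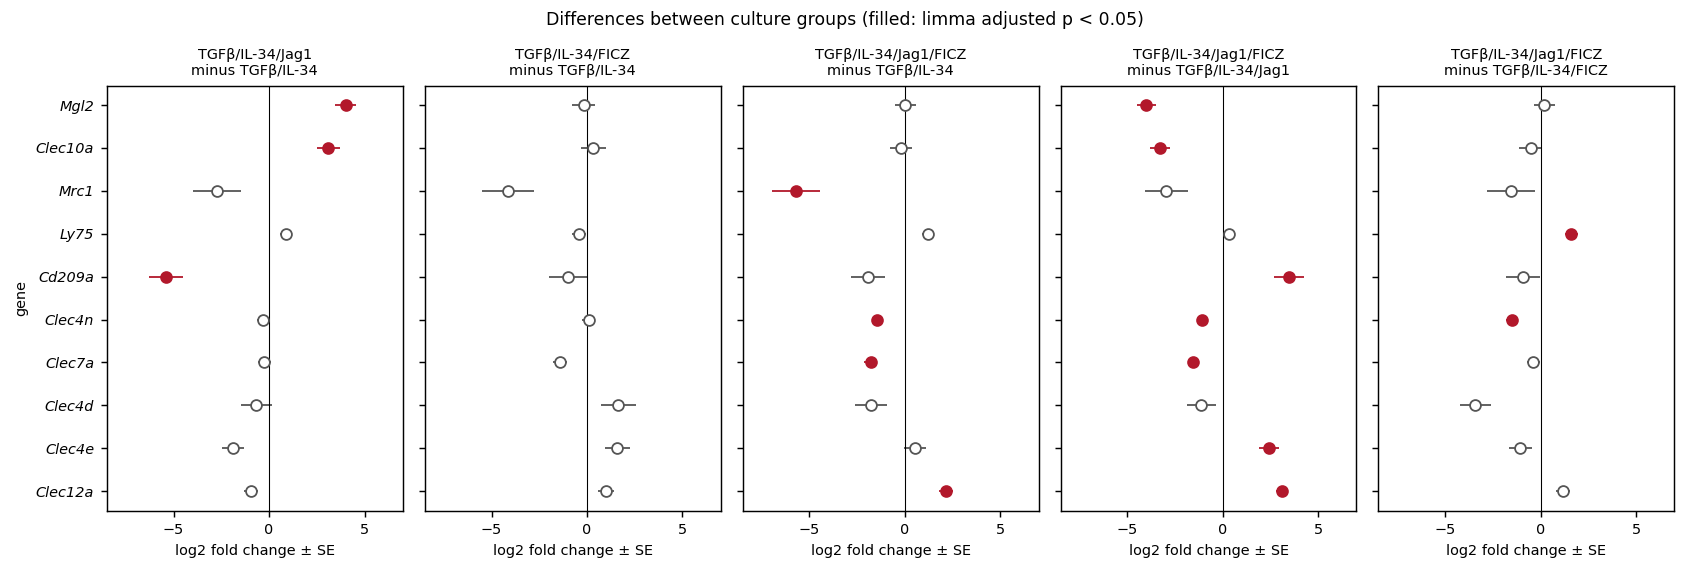
Log2 fold changes with their standard errors (horizontal axis) of the 10 lectins (vertical axis) in 5 comparisons of culture groups, with filled points for an adjusted p below 0.05 by limma. FICZ in the presence of Jag1 has 7 filled points, 3 to the right and 4 to the left of 0, and FICZ without Jag1 has none.

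**Figure D3:**
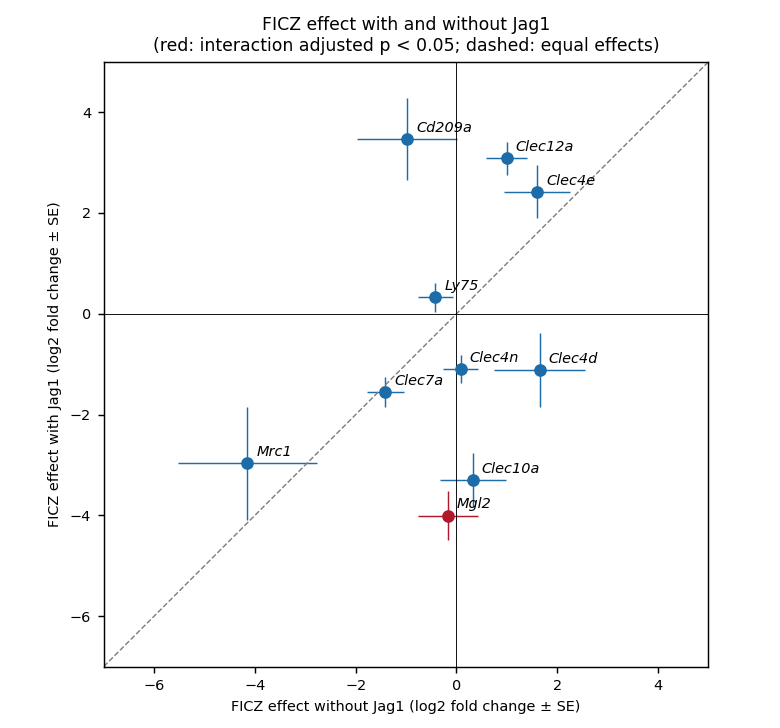
The FICZ effect without Jag1 (horizontal axis) against that with Jag1 (vertical axis), both as log2 fold change with standard errors, for the 10 lectins, with a dashed line where they are equal. Mgl2, in red, is at -0.17 and -4.00 and is the lectin whose interaction passed the threshold in the fit shown, with all samples. Clec7a (-1.41 and -1.55) lies close to the line.

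Per kilobase of the canonical transcript, Clec4n had the highest group mean of the 10 lectins in all 5 groups, from 3006 ± 951 (SD, n = 3) normalised counts per kb in TGFβ/IL-34/Jag1/FICZ to 8615 ± 3268 (SD, n = 2) in TGFβ/IL-34/FICZ. In TGFβ/IL-34/Jag1, Mgl2 at 6011 ± 786 (SD, n = 3) stood next to Clec4n at 6292 ± 1326 (SD, n = 3), a gap smaller than the spread of either, and Ly75 followed at 1903 ± 181 (SD, n = 3). In TGFβ/IL-34, Ly75 (1043 ± 52.8) and Clec7a (1026 ± 37.5, SD, n = 2 for both) came after Clec4n and did not differ beyond their spread. The level of Mgl2 was 415 ± 272 (SD, n = 2). In TGFβ/IL-34/Jag1/FICZ the level of Ly75 per kb was 2393 ± 338, that of Clec12a 876 ± 168 and that of Mgl2 437 ± 267 (SD, n = 3 for each). The Jag1 only sample was led by Clec4n (3259), Ly75 (2393), Clec7a (2257) and Mgl2 (1788). Mrc1 or Cd209a had the lowest level per kb in every group. These levels depend on which transcript is taken as the length.

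For each lectin, the 3 genes with the most similar profile over the 11 samples were found by the root mean square difference of log2 values centred on each gene's mean. Mgl2 was most like Cd300c2, Gprc5c and the complement gene C1qc (differences of 0.64 to 0.68), and Clec10a was most like 1700001O22Rik, Ovol2 and Asgr2, the last a galactose-binding lectin of the same kind (0.55 to 0.56). Clec12a was most like Kif2c, Pif1 and Kntc1 (0.39 to 0.42), of which Kif2c and Kntc1 act in chromosome segregation. Ly75 (Plcg1, Lonrf1 and Foxn3, 0.21 to 0.23) and Clec4n (Dnajc15, Clba1 and Pigbos1, 0.22 to 0.32) had the closest matches. Clec4d was most like Trem2, Ly6i and Hmox1 (0.61 to 0.87), Clec4e was most like Gal3st2, Gpnmb and Aoah (0.54 to 0.61), and Clec7a was most like Haus8, Tsc1 and Tbc1d24 (0.54 to 0.55). Matches were looser for Cd209a (Treml4, Tgtp1 and Ms4a6c, 0.86 to 0.96) and Mrc1 (Bhlhe41, Pacsin1 and Car4, 1.52 to 1.77), whose low levels carry more counting error. The points share the same libraries.

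Of 35 other genes of the C-type lectin superfamily, 19 passed the filter on low values. FICZ in the presence of Jag1 raised 8 of these and lowered 2, beside 10.9% and 6.71% of all genes tested, with a median log2 fold change of 0.89 against -0.01. Cd93, a receptor with a lectin-like domain, was 35.2 to 55.2 normalised counts in TGFβ/IL-34/Jag1 and 1361 to 1802 in TGFβ/IL-34/Jag1/FICZ (log2 fold change 4.98 ± 0.26, adjusted p = 3.14e-06), and it was 845 to 964 in TGFβ/IL-34. The oxidised LDL receptor Olr1 (2.89 ± 0.36, adjusted p = 0.000497), the activation marker Cd69 (1.85 ± 0.22, 0.000384), the stress-ligand receptor Klrk1 (1.87 ± 0.21, 0.000258), Cd209c (2.56 ± 0.61, 0.0157), Clec4a4 (3.27 ± 0.66, 0.00681) and Clec4a2 (1.99 ± 0.58, 0.0404) rose as well. Clec4b2 was at 0 in all TGFβ/IL-34/Jag1 samples and at 29.9, 29.4 and 11.1 with FICZ, at least 7.42-fold higher than 3 reads per library (adjusted p = 0.00309), and the median of the list is the same with this gene at its bound. The genes that fell were Cd207, the gene of langerin (1366 to 1784 against 6.29 to 132, -6.27 ± 0.88, adjusted p = 0.000908), and Cd72, an inhibitory receptor known from B cells (-1.24 ± 0.21, 0.00229).

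Jag1 without FICZ lowered 4 of the 19 other lectins and raised none by limma, beside 3.96% and 2.64% of all genes tested. Cd207 was 154 to 157 normalised counts in TGFβ/IL-34 and 1366 to 1784 in TGFβ/IL-34/Jag1, without overlap. Its difference missed the threshold (3.36 ± 0.98, adjusted p = 0.0756 by limma). Cd93 (-4.23 ± 0.29, adjusted p = 4.95e-05), Cd209c (-3.28 ± 0.68, 0.0182), Olr1 (-2.58 ± 0.40, 0.00441) and Cd69 (-1.33 ± 0.25, 0.0105) fell, and the median was -0.05. FICZ without Jag1 called none (median -0.04). Klrk1 and Clec4b2 rose with both together (1.36 ± 0.23, adjusted p = 0.0116, and at least 8.20-fold over 3 reads per library, adjusted p = 0.0211), and Klrk1 rose with Jag1 in the presence of FICZ (1.12 ± 0.23, 0.0408), with medians of 0.38 and 0.28. Interactions past the threshold were those of Cd93 (4.52 ± 0.41, 0.00174), Olr1 (3.03 ± 0.57, 0.0424), Cd69 (1.93 ± 0.35, 0.0382) and Klrk1 (1.63 ± 0.33, 0.0444), with a list median of 1.05. Paralogues of the Clec4 and Cd209 clusters can share reads, so levels of Clec4a2, Clec4a4, Clec4b2 and Cd209c are uncertain.

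**Figure D4:**
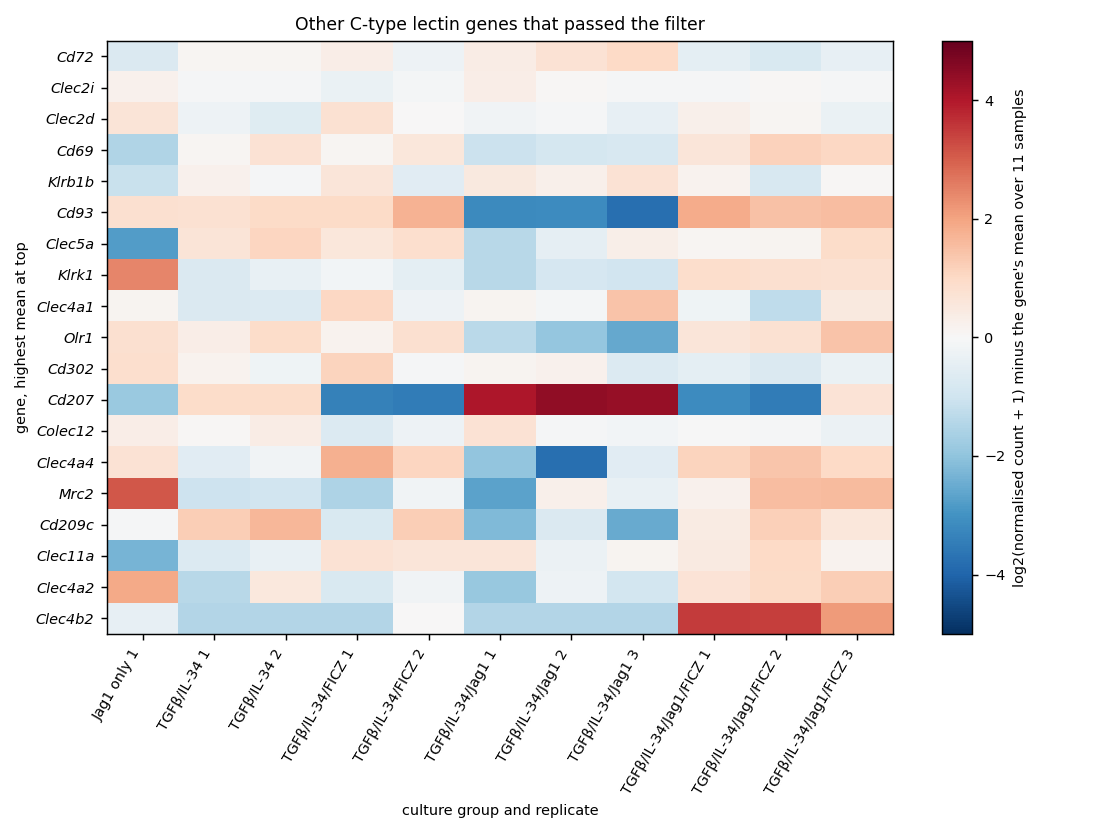
Colour shows log2(normalised count + 1) minus the mean of each gene over the 11 samples for 19 other C-type lectin genes (rows, highest mean at the top) in each sample (columns, by culture group and replicate). Cd93 and Olr1 are low in the 3 TGFβ/IL-34/Jag1 samples and Cd207 is high in them, while Clec4b2 is above its mean in the 3 TGFβ/IL-34/Jag1/FICZ samples.

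All 20 listed genes of the pathway from lectins to Syk and Card9 passed the filter on low values. FICZ in the presence of Jag1 lowered 4 of them and raised 2, beside 6.71% and 10.9% of all genes tested, so the share raised was near that of all genes. Those that fell were Card9 (-1.31 ± 0.27, adjusted p = 0.00798), the exchange factor Vav1 (-0.90 ± 0.17, 0.00505), the lipid phosphatase gene Inpp5d (-0.87 ± 0.22, 0.0221) and the kinase Lyn (-0.81 ± 0.14, 0.00290). Those that rose were the exchange factor Vav3 (0.95 ± 0.19, 0.00635) and the ubiquitin ligase Cblb (0.71 ± 0.20, 0.0307). Card9 was 6481 to 6972 normalised counts in TGFβ/IL-34/Jag1 and 2366 to 3257 in TGFβ/IL-34/Jag1/FICZ. Jag1 without FICZ raised Malt1, the protease partner of Card9 and Bcl10 (1.15 ± 0.27, adjusted p = 0.0335), and Lyn (0.70 ± 0.16, 0.0265), and lowered Src (-0.80 ± 0.19, 0.0307). With FICZ present Jag1 raised Malt1 (1.502 ± 0.27, 0.0261), both together lowered Src (-0.84 ± 0.19, 0.0332), and neither FICZ without Jag1 nor the interaction called any of the 20 by limma. Syk and the adaptor genes Fcer1g and Tyrobp were called in no contrast. The median of the 20 was -0.23 to 0.12 across the 6 contrasts.

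Among 15 genes linked to alternative activation, a state in which Mrc1, Mgl2 and Clec10a are commonly raised, 13 passed the filter, and Retnla was at 0 in all samples. Jag1 without FICZ raised 2 and lowered 3 of them (2.64% and 3.96% of all genes), and FICZ with Jag1 raised 3 and lowered 1 (10.9% and 6.71%). With Jag1 and no FICZ, the eosinophil chemokine gene Ccl24 rose (6.47 ± 0.45, adjusted p = 4.95e-05), as did the transglutaminase gene Tgm2 (1.54 ± 0.19, 0.00130). In the same comparison the chemokine gene Ccl17 (-3.79 ± 0.22, 2.95e-05), Chil3 (-3.39 ± 0.68, 0.0158) and the interleukin-1 antagonist Il1rn (-1.84 ± 0.32, 0.00805) fell. FICZ in the presence of Jag1 raised Ccl17 (2.19 ± 0.20, 8.41e-05), Il1rn (1.98 ± 0.29, 0.00117) and Ccl22 (0.90 ± 0.25, 0.0340) and lowered the transcription factor Irf4 (-0.72 ± 0.18, 0.0198). Ccl24 and Tgm2 were also higher and Ccl17 lower in TGFβ/IL-34/Jag1/FICZ than in TGFβ/IL-34 (6.404 ± 0.45, 1.23 ± 0.19 and -1.60 ± 0.22, adjusted p = 0.000706, 0.00765 and 0.00531) and than in TGFβ/IL-34/FICZ (5.59 ± 0.45, 1.19 ± 0.19 and -2.20 ± 0.22, adjusted p = 0.000986, 0.0167 and 0.00240). Ccl17 was the only interaction called (1.59 ± 0.32, 0.0433), and FICZ without Jag1 called none by limma. The median of the 13 was -0.56 for Jag1 without FICZ and 0.04 to 0.35 in the other 5 contrasts.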

How the data were processed

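Bulk RNA sequencing was done on 11 samples in 5 groups, taken from the labels. Per the study's methods, the authors used salmon with Ensembl GRCm39 transcripts, tximport to reach gene level, and DESeq2 for scaling. The values they deposited are a normalised signal per gene, that is, counts scaled by DESeq2 and not divided by gene length. The scaling factors are not given in the sources used here. The tools' versions are not given in the sources used here. In each sample, 80.5% to 98.2% of the low values of 2758 single-transcript genes were a multiple of 1 step, to within 0.1 steps. Whole reads were therefore not recovered, and a count model was not fitted. The step, 0.896 to 1.15 normalised counts, gave the estimate of depth. The authors' metadata file gave another experiment code than the sample description for 1 sample, TGFβ/IL-34 replicate 1.

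The tests covered 13095 of 21860 genes, those that reached 10 in 2 or more samples. On the log2(value + 1) scale they were fitted with limma 3.58.1 in R 4.3.3 (eBayes, trend), fitting a mean for each group over all 11 samples, no covariate and 6 residual degrees of freedom. The two-sided p-values were adjusted by the Benjamini-Hochberg method over all genes tested, separately in each contrast, and the threshold was 0.05. The study tested counts with DESeq2, which normalised values do not allow. The Jag1 only sample entered the fit and no contrast. Where leaving out a sample left an arm with 1 sample, the fit assumes that the spread of the other groups holds for it. The fitting code was tested on simulated data. Annotation and transcript lengths are those of GENCODE vM39 (GRCm39), in which 21676 of the 21860 gene identifiers were found. Motifs were searched on both strands of windows of 300 bases.

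The members and the lists of other lectins, signalling, alternative activation and cell type markers were chosen with earlier results of these data known. For 1 gene of these lists no value of its own is given here. Named genes were the 10 members, listed genes that passed in a contrast (up to 6 per contrast and direction by fold change, in the other lists), Cd207, and for each member the 3 genes of mean at least 50 with the closest profile. Fcer1g, Tyrobp and Syk were named after their values were seen. In the Jag1 groups with and without FICZ, equal replicate numbers go with equal experiment codes, and the deviations of such samples from their group means correlated at 0.153, 0.122 and 0.166 across genes, so the numbers pair these groups. Numbers of TGFβ/IL-34 do not follow the codes. Alternatives were pseudocounts of 0.5 and 4, no filter, quantile normalisation, the compared groups alone, the replicate number or the experiment code as a block, array weights, and each sample left out. The code of the authors' file and the flow cell as blocks were added after seeing the data.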

Additional observations from a re-analysis of the deposited data

Results flagged for a closer look

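The FICZ effect on Mgl2 was flagged because it differed between cultures with and without Jag1 by a test of the difference itself. The interaction was -3.84 ± 0.77 on the log2 scale (limma, adjusted p = 0.0444), from a FICZ effect of -4.00 with Jag1 and -0.17 without it. Mgl2 was lower with FICZ in 3 of 3 samples with Jag1, whereas the samples without Jag1 overlapped. Over the other fits the adjusted p was 0.0116 to 0.355, and the sign was the same in all of them. No group held the 4 samples needed to test for a sample far from the others.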

How the results depend on the processing

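Of 17 calls of members in the 6 contrasts, 6 held in every fit run: Mgl2 with Jag1, and Mgl2, Clec10a, Clec7a, Clec4e and Clec12a with FICZ in the presence of Jag1. None of the 17 changed direction. The number of members called was 3 for Jag1 without FICZ, and it became 5 with the compared groups alone, 7 with array weights and 1 to 3 with a sample left out. For FICZ without Jag1 it was 0, and 0 to 4 with a sample left out. For both together it was 4, and 2 with no filter, 7 with array weights and 0 to 3 with a sample left out. For FICZ with Jag1 it was 7, and 5 to 8 under every alternative (5 to 7 with a sample left out). For Jag1 with FICZ it was 2, and 0 with no filter, with the compared groups alone and with array weights, 1 with the replicate block and 0 to 4 with a sample left out. For the interaction it was 1, and 0 with no filter, with the experiment code as a block and with array weights, 2 with the replicate block, 4 with the code of the authors' file and 0 to 7 with a sample left out. In the 3 contrasts with TGFβ/IL-34/FICZ, the highest counts with a sample left out were those without its replicate 2, when 5488 to 5820 genes of the table were called. No filter adds genes to the adjustment, and the cause of the other changes was not tested. Calls over all genes change with the fit too. The counts of members here are not set beside the share of all genes called, so they are not a result about the lectins.

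Log2 fold changes that changed sign missed the threshold in every fit with the changed sign. For FICZ without Jag1, Clec4n was -0.12 with quantile normalisation and -0.15 with the flow cell block, Clec10a was -0.19 with the experiment code and -0.36 with the flow cell block, Mgl2 was 0.14 with the code of the authors' file, and with a sample left out Mgl2 ranged from -0.89 to 0.56, Clec10a from -0.43 to 1.08, Clec4n from -0.31 to 0.48 and Ly75 from -1.08 to 0.23. For both together, Mgl2 was -0.24 with the replicate block, -0.0140 with the experiment code, -0.0156 with array weights, -0.0148 with the flow cell block and -0.71 to 0.74 with a sample left out, and Clec10a was 0.11 with the code of the authors' file and -0.91 to 0.50 with a sample left out. For Jag1 with FICZ, Mgl2 was -0.0732 with the replicate block, and with a sample left out Mgl2 ranged from -0.27 to 0.77, Clec10a from -1.29 to 0.23 and Mrc1 from -4.05 to 0.92. For the interaction, Mrc1 ranged from -1.31 to 3.67 and Clec7a from -0.40 to 0.14 with a sample left out. The replicate block changed the calls of Mrc1, Ly75 and Clec10a given beside those results and no other call of a member. Members at a few reads, Mrc1 and Cd209a, are limited by depth.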
